A study of Mus musculus with 10 samples.

Results

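Phase II conjugation was followed in the livers of mice that ate chow with or without the PAI-1 inhibitor TM5614, across the glutathione S-transferases (GST, microsomal forms included), the UDP-glucuronosyltransferases (UGT) and the sulfotransferases (SULT). Members were the rows of the count table whose symbol belongs to the Gsta, Gstm, Gstp, Gstt, Gsto, Gstk, Gstz, Mgst, Ugt1, Ugt2, Ugt3 or Sult families and which held at least 50 counts over the 10 libraries. Of 24421 genes listed, 63 carried such a symbol and 43 were members. These were 21 GST genes (19 soluble forms and 2 Mgst genes), 15 UGT genes and 7 SULT genes. The rule used no difference between groups.

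Phase II enzymes attach a polar group to drugs, hormones, bile pigments and reactive metabolites, so that bile or urine can carry them away. GST enzymes join glutathione to electrophiles, UGT enzymes transfer glucuronic acid from UDP-glucuronic acid, and SULT enzymes transfer sulfate from PAPS, its activated form. The liver is the main site of all 3 reactions, and hepatocytes around the central vein hold much of the GST and UGT activity.

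RNA sequencing was done on poly(A) RNA from livers of 10 male wild-type C57BL/6 mice, 21 weeks old by the sample labels and fed ad libitum. The Chow group (n = 5) ate standard chow without the inhibitor. The TM5614 group (n = 5) ate the same kind of food with TM5614 mixed in, at 20 mg/kg/day for 10 days. Each mouse gave 1 library, no genotype differed between the groups, and the inhibitor was given to the whole animal, so the liver was not its only site of exposure.

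The total count per library lay between 6398335 and 10874955, and 11092 genes had enough counts to enter the test. Hepatocyte markers were abundant in all libraries, at 98491 to 125080 CPM for 6 genes summed (CPM are counts scaled to a common library size), and none of the 6 passed edgeR's test (1 at an unadjusted p under 0.05, 1 by DESeq2 and 1 by limma-voom). A pair of libraries stood apart. Chow replicate 2 had a mean correlation of 0.927 with the other Chow libraries across genes, against at least 0.965 for the other 9 libraries within their own groups. A trend on GC content and transcript length held 46.8% of its deviations, against at most 17.3% in any other library. TM5614 replicate 2 held skeletal muscle transcripts, at 3649 CPM for 6 marker genes summed. In bulk tissue, fewer cells of a type and less RNA per cell cannot be told apart.

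Of the 43 members, 40 passed the filter. Of these, 6 were lower in TM5614 and 0 were higher (edgeR's quasi-likelihood test, Benjamini-Hochberg adjusted p under 0.05). That is 15% of the tested members, against 4.50% of all genes tested, and 2.77% of all genes were called lower. The lower genes were Gsta3, Gstm1, Gstm3, Gstm6, Gstt3 and Sult1b1, so 5 of the 6 were GST genes. At an unadjusted p under 0.05 there were 14 lower and 0 higher of 40. The share of all genes at that looser limit is not given here, so this count has no background beside it. DESeq2 called 8 lower and 0 higher, and limma-voom 11 lower and 0 higher. Calls over all 11092 genes rose as well, from 499 in edgeR's test to 900 by DESeq2 and 1386 by limma-voom. With Chow replicate 2 and TM5614 replicate 2 both left out, 10 members were lower and 0 higher, and the 6 genes were among the 10. The other 4 were Gstm2, Mgst3, Sult1c2 and Ugt1a5. In that fit 1224 of 11053 genes were called, so the larger counts of members came with more calls over all genes.

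**Figure D1:**
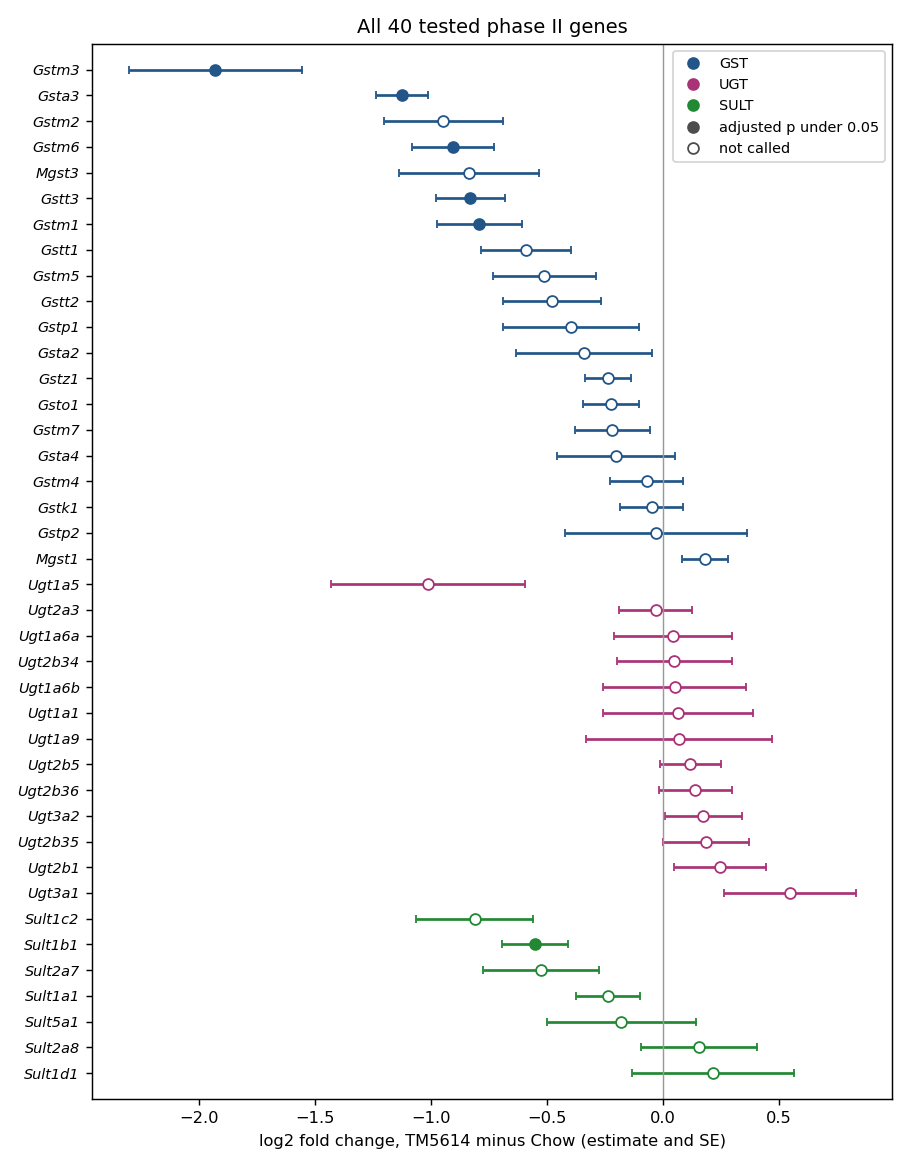
Log2 fold change of TM5614 against Chow for the 40 tested members, with bars of 1 standard error, grouped as GST, UGT and SULT; filled points passed an adjusted p of 0.05. The 19 GST estimates below 0 contrast with the UGT estimates, 11 of 13 of which lie above 0, up to 0.55 for Ugt3a1. Without Chow replicate 2, 6 of 13 UGT estimates lay above 0.

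The DNA before the start sites of the called members was read for motifs, which also lay before members that were not called. The RefSeq stretches of 150 bases before the start (GRCm38.p6) are printed for the 3 lower genes in which a searched motif lay, read 5′ to 3′ on the gene's strand, with the motif in capitals. In Gsta3 (chr1:21240435-21240584, + strand) the capitals mark a HNF1 motif (GTTAAT, on the opposite strand) and an antioxidant response element core (TGACNNNGC) that begins 121 bases before the start. In Gstm1 (chr3:108017974-108018123, - strand) they mark a xenobiotic response element core (GCGTG) that begins 76 bases before the start. In Sult1b1 (chr5:87538196-87538345, - strand) they mark a nuclear receptor motif (AGGTCA, on the opposite strand) that begins 123 bases before it. For Gstm3, Gstm6 and Gstt3 either no searched motif was found or no window was available. Uncalled members held the same motifs within 250 bases of the start. Among these were Gstm5 and Mgst1 for TGACNNNGC, Gstp1 and Mgst3 for GCGTG, Ugt2b5 and Ugt2b36 for AGGTCA, and Ugt1a1 for GTTAAT.
Gsta3: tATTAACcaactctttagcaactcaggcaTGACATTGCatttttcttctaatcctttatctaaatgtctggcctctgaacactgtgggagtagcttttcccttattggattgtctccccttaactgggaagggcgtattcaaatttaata
Gstm1: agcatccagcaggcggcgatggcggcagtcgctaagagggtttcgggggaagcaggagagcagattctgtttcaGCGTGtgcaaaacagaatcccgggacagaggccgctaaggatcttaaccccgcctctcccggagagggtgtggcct
Sult1b1: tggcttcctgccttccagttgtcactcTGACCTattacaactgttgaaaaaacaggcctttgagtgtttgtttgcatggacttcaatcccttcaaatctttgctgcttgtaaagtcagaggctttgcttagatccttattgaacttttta

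RefSeq windows were available for 38 members, 48 windows in all, and 7 motifs were searched on both strands over the 250 bases before each start. The antioxidant response element core, the letters read by NRF2 with its small Maf partners, lay in 4 of 48 member windows (8.33%) and in 10.2% of all 32851 windows. All 4 were GST windows. GCGTG, read by the aryl hydrocarbon receptor with ARNT, lay in 18.8% of member windows and 28.2% of all windows. AGGTCA lay in 18.8% of member windows against 14.0% of all, and GTTAAT in 16.7% against 6.43%. Among the 13 UGT windows, 6 held AGGTCA and 5 the HNF1 motif. The TATA box TATAAA lay in 12.5% of member windows and 12.4% of all. The E-box CACGTG lay in 0 member windows and 6.02% of all. The D-box TTATGTAA, read by DBP, TEF and HLF, lay in 1 member window, that of Ugt2b1, and in 0.819% of all. A match describes letters in a window and not a bound site, and the shares were not tested.

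GST transcripts are described next. The alpha-class gene Gsta3 (ENSMUSG00000025934.15, chr1:21240589-21265661, + strand) encodes a soluble transferase that conjugates electrophiles such as aflatoxin epoxide in mouse liver. Its level was 1724, 2017, 1769, 1499 and 1770 CPM in Chow replicates 1 to 5. It was 878, 831, 724, 717 and 873 CPM in TM5614 replicates 1 to 5. No TM5614 library reached the lowest Chow library. The mean went from 1756 ± 184 (SD, n = 5) to 805 ± 79.1 (SD, n = 5) CPM, and the fitted level fell by 54.2% (log2 fold change -1.13, SE 0.11, edgeR adjusted p = 0.00034). Gsta3 shared 0 of its 75-base words with other annotated transcripts, so no exact match of read length to another gene was found for it. The call held in all 22 alternative settings.

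Of the other alpha-class genes, Gsta2 went from 46.8 ± 14.8 to 36.9 ± 17.2 CPM (SD, n = 5) and Gsta4, which acts on lipid peroxidation products such as hydroxynonenal, from 65.7 ± 15.0 to 57.2 ± 23.5 CPM (SD, n = 5). Neither passed the test. Gsta1 held 76 counts over all libraries and was not tested, and 86.3% of the 75-base words of its main transcript occur in other transcripts, Gsta2 among them.

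The mu-class genes lie side by side on chromosome 3, in the order Gstm5, Gstm7, Gstm6, Gstm3, Gstm2, Gstm1 and Gstm4. All 7 were tested, 3 were lower and all 7 estimates lay below 0. Gstm1 (ENSMUSG00000058135.12, chr3:108012255-108017973, - strand), the main mu-class enzyme of mouse liver, stood at 1583, 2333, 1417, 1356 and 1243 CPM in Chow replicates 1 to 5. In TM5614 replicates 1 to 5 it stood at 912, 1225, 802, 828 and 813 CPM. Replicate 2 was the highest library of each group, and the highest TM5614 library lay just under the lowest Chow library. The fitted level fell by 42.3% (log2 fold change -0.79, SE 0.18, edgeR adjusted p = 0.0304).

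The Gstm1 call was lost with Chow replicate 1 (adjusted p = 0.0533), Chow replicate 3 (0.0549), or TM5614 replicate 1 (0.0719), 3 (0.102), 4 (0.0970) or 5 (0.0824) left out in edgeR's test. Without Chow replicate 2 it held, with a log2 fold change of -0.61 (edgeR adjusted p = 0.00968). Gstm1 shared 14.8% of its 75-base words with other transcripts, Gstm3 among them, and how reads with several matches were counted is not given in the sources used here.

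Gstm3 (ENSMUSG00000004038.9, chr3:107963696-107969283, - strand) had the steepest fall among the members in this fit. Its level was 30.3, 46.9, 26.7, 29.2 and 16.5 CPM in Chow replicates 1 to 5. In TM5614 replicates 1 to 5 it was 8.31, 15.8, 7.09, 3.42 and 4.91 CPM. The lowest Chow library lay just above TM5614 replicate 2. The fitted level fell by 73.8% (log2 fold change -1.93, SE 0.37, edgeR adjusted p = 0.0122). Of its 75-base words, 21.6% occur in other transcripts, Gstm1 and Gstm6 among them.

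Gstm6 (ENSMUSG00000068762.11, chr3:107938847-107943749, - strand) was at 79.6, 104, 72.9, 61.6 and 63.6 CPM in Chow replicates 1 to 5. It was at 52.3, 45.2, 31.6, 33.4 and 41.4 CPM in TM5614 replicates 1 to 5. The groups did not overlap, and the fitted level fell by 46.6% (log2 fold change -0.91, SE 0.18, edgeR adjusted p = 0.0129). Only 5.47% of its 75-base words were shared.

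Gstm2, another mu-class transferase, was at 42.7, 62.5, 37.2, 28.9 and 28.1 CPM in Chow replicates 1 to 5 and at 21.8, 28.0, 20.8, 11.4 and 21.8 CPM in TM5614 replicates 1 to 5. The groups did not overlap, by a gap of less than 1 CPM, yet the gene missed the threshold (log2 fold change -0.95, SE 0.26, edgeR adjusted p = 0.0613). Without Chow replicate 2 it passed (log2 fold change -0.73, edgeR adjusted p = 0.0450). In all, Gstm2 passed in 7 of 21 alternative settings, DESeq2 (adjusted p = 0.00996) and limma-voom (adjusted p = 0.01351) among them. The levels of Gstm4 (49.6 ± 12.6 and 47.3 ± 5.02 CPM), Gstm7 (43.2 ± 10.6 and 37.1 ± 4.23 CPM) and Gstm5 (8.73 ± 3.02 and 6.15 ± 1.09 CPM; SD, n = 5, Chow before TM5614) did not pass the test. Summed as 1 unit of 6 genes without Gstm5, the cluster was lower (log2 fold change -0.77, SE 0.18, edgeR adjusted p = 0.0328), and in that sum reads divided among its members no longer matter. Gstm1 held 111124 of the 128490 counts in the sum, so the estimate mostly repeats that of Gstm1 and says little of the other members.

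**Figure D2:**
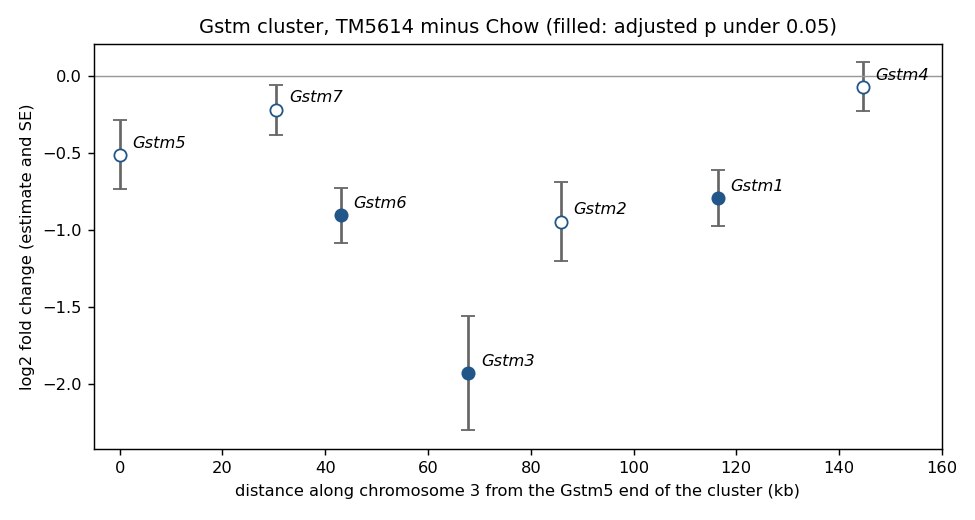
Log2 fold change of TM5614 against Chow (vertical axis, bars of 1 standard error) of the 7 mu-class genes by distance along the cluster in kilobases; filled points passed an adjusted p of 0.05. Gstm6, Gstm3, Gstm2 and Gstm1 lie between -0.79 and -1.93, and Gstm7 and Gstm4 on their flanks lie at -0.22 and -0.07.

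Whether neighbours in the cluster changed unequally was tested on the log2 ratio of their counts within each library, over 6 pairs with an exact two-sided permutation test of 252 splits and adjustment over the 6 pairs. Gstm7 relative to Gstm6 was higher in TM5614 by 0.71 (exact p = 0.00794, adjusted p = 0.0159). Gstm6 relative to Gstm3 was higher by 1.13 (exact p = 0.0159, adjusted p = 0.0238). Gstm3 relative to Gstm2 had a difference of -1.10 (exact p = 0.00794, adjusted p = 0.0159), and Gstm1 relative to Gstm4 one of -0.73 (exact p = 0.00794, adjusted p = 0.0159). The p of 0.00794 is the smallest that 252 splits can give. The ratio of Gstm5 to Gstm7 differed by -0.27 (exact p = 0.183) and that of Gstm2 to Gstm1 by -0.16 (exact p = 0.540). With replicate 2 of each group left out, the 4 differences past the threshold were 0.75, 1.33, -1.28 and -0.78 in the same order, each with an exact p of 0.0286, the smallest that 70 splits of 4 against 4 can give. These pairs were tested with the fold changes of the genes already known, and neighbouring pairs share a gene.

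The theta-class genes form a row on chromosome 10. Gstt3 (ENSMUSG00000001665.11, chr10:75774115-75781414, - strand) was at 128, 112, 139, 97.8 and 102 CPM in Chow replicates 1 to 5. In TM5614 replicates 1 to 5 it was at 79.2, 73.7, 50.4, 65.6 and 56.5 CPM. The groups did not overlap, and the fitted level fell by 43.8% (log2 fold change -0.83, SE 0.15, edgeR adjusted p = 0.00792). The call held in all 22 alternative settings. Of its 75-base words, 25.0% occur in transcripts of Gm20441. Gstt1, which acts on small halogenated compounds, went from 247 ± 79.3 to 164 ± 21.1 CPM and Gstt2 from 130 ± 46.9 to 93.1 ± 13.9 CPM (SD, n = 5). Neither passed in edgeR (adjusted p = 0.113 and 0.226) or DESeq2, and limma-voom called Gstt1 lower (adjusted p = 0.0482).

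Levels between genes were compared in FPKM, which are scaled by gene length. Mgst1, a microsomal enzyme with transferase and peroxidase activity, was the most abundant member at 3091 FPKM in Chow and 3497 FPKM in TM5614. Its CPM was 3314, 2483, 3174, 2840 and 2899 in Chow replicates 1 to 5 and 3386, 3297, 3341, 3335 and 3325 in TM5614 replicates 1 to 5. The TM5614 libraries lay within a narrow band, and the difference did not pass the test (log2 fold change 0.18, SE 0.10, edgeR adjusted p = 0.327). Gstm1 was next at 1215 and 699 FPKM, and Gsta3 followed at 1080 and 494 FPKM. The share of Mgst1 in the summed FPKM of GST members was 43.3% ± 6.53 in Chow and 57.6% ± 2.41 in TM5614 (SD, n = 5), that of Gstm1 16.7% ± 2.96 and 11.5% ± 1.72, and that of Gsta3 15.0% ± 1.03 and 8.12% ± 0.73. These shares restate the levels above and were not tested.

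Among the remaining GST genes, Gstz1, the maleylacetoacetate isomerase of tyrosine breakdown, did not overlap between groups. Its CPM was 801, 1004, 835, 801 and 795 in Chow replicates 1 to 5 and 755, 691, 701, 689 and 757 in TM5614 replicates 1 to 5. The difference was small and missed the threshold (log2 fold change -0.24, SE 0.10, edgeR adjusted p = 0.205). Mgst3, a second microsomal gene, was at 22.9 ± 9.72 and 12.9 ± 5.54 CPM (SD, n = 5; log2 fold change -0.84, edgeR adjusted p = 0.151), and it passed with TM5614 replicate 2 left out (edgeR adjusted p = 0.0492). In all, Mgst3 passed in 5 of 22 alternative settings, limma-voom (adjusted p = 0.01675) and the replicate block (edgeR adjusted p = 0.01718) among them. Gstp1, the pi-class enzyme, was at 306 ± 149 and 233 ± 54.2 CPM (SD, n = 5), and 57.7% of its words were shared, with Gstp2 among others. Gstp2, Gsto1 and Gstk1 did not pass the test.

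Over the GST family, 5 of 20 tested genes were lower and 19 of 20 estimates lay below 0, with a median log2 fold change of -0.44 against 0.01 over all genes tested. Of the 40 tested members, 7 had groups that did not overlap, all of them GST genes, and 8.94% of all genes tested did so. Without Chow replicate 2 the GST median was -0.26 and 16 of 20 estimates lay below 0. With the offset for GC content and length it was -0.34, with 15 of 20 below 0. The summed GST level was 8592 ± 839 CPM in Chow and 6850 ± 297 CPM in TM5614 (SD, n = 5), and the ranges did not overlap (7866 to 9935 and 6566 to 7304). Most of that difference lay in Gsta3 (means of 1756 and 805 CPM) and Gstm1 (1586 and 916 CPM). Mgst1, the largest part of the sum, had means of 2942 and 3336 CPM. The sum thus mostly repeats Gsta3 and Gstm1 and says little of the other GST members.

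**Figure D3:**
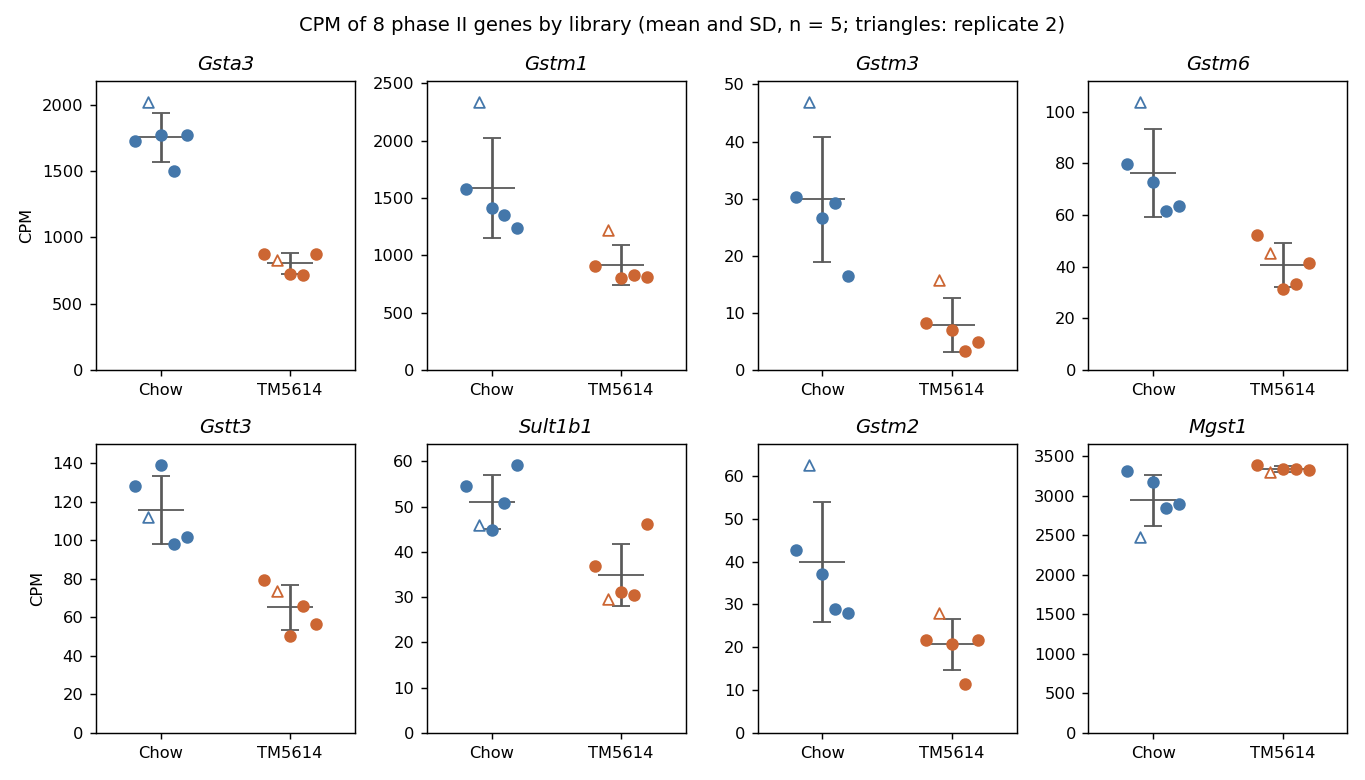
CPM (vertical axis from 0) of the 6 lower members, of Gstm2 and of Mgst1 in each library, with the mean and SD (n = 5 per group); triangles mark replicate 2 of each group. In Gsta3, Gstm1, Gstm3, Gstm6, Gstt3 and Gstm2 every TM5614 library lies under every Chow library, in Sult1b1 the groups overlap, and Mgst1 did not pass the test.

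The UGT genes gave no call. Of 15 members 13 were tested, and 0 were higher or lower, by edgeR or by DESeq2. At an unadjusted p under 0.05 there was 1, Ugt1a5, which limma-voom called lower. The 3 most abundant were Ugt2b5 at 372 and 403 FPKM (Chow before TM5614), Ugt2b36 at 323 and 355 FPKM and Ugt3a2 at 160 and 180 FPKM. Ugt2b enzymes conjugate steroids, bile acids and drugs, and the Ugt3a enzymes use other sugar donors than UDP-glucuronic acid. In CPM, Ugt2b5 was at 740, 589, 746, 786 and 697 in Chow replicates 1 to 5 and at 665, 924, 746, 895 and 632 in TM5614 replicates 1 to 5. The TM5614 libraries lay within or above the range of the Chow libraries (log2 fold change 0.12, SE 0.13, edgeR adjusted p = 0.631). Ugt2b36 was at 616 ± 134 and 679 ± 70.1 CPM (log2 fold change 0.14, SE 0.16) and Ugt3a2 at 355 ± 86.6 and 401 ± 27.8 CPM (SD, n = 5; log2 fold change 0.17, SE 0.17). With SEs of this size, changes well under those of the lower GST genes could not be told from 0.

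The Ugt1a genes share their last exons and differ in the first, so their counts rest on few unique bases: 57.7% of the 75-base words of Ugt1a1, the bilirubin transferase, and 97.7% of those of Ugt1a6a occur in other Ugt1a transcripts. Ugt1a1 stood at 315, 63.3, 255, 218 and 281 CPM in Chow replicates 1 to 5 and at 256, 168, 245, 270 and 246 CPM in TM5614 replicates 1 to 5. Replicate 2 was the lowest library in each group. Summed as 1 unit, the Ugt1a complex had a log2 fold change of 0.01 (SE 0.32) and the Ugt2b genes 0.13 (SE 0.16), and neither passed the test.

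Ugt1a5 went the other way from most UGT genes, at 40.5, 5.68, 30.6, 12.6 and 22.3 CPM in Chow replicates 1 to 5 and at 14.0, 7.12, 9.84, 9.92 and 14.4 CPM in TM5614 replicates 1 to 5. Chow replicate 2 was the lowest of the 10 libraries. The difference was not called (log2 fold change -1.01, SE 0.42, edgeR adjusted p = 0.203), and without Chow replicate 2 it was (log2 fold change -1.26, edgeR adjusted p = 0.0169). Ugt1a6a (28.1 ± 9.76 and 29.0 ± 4.02 CPM), Ugt2a3 (300 ± 68.0 and 294 ± 13.8 CPM) and Ugt2b35 (215 ± 50.9 and 244 ± 43.5 CPM; SD, n = 5) showed little difference in mean. Ugt3a1 had the highest UGT estimate (log2 fold change 0.55, SE 0.29, edgeR adjusted p = 0.305).

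The 11 of 13 UGT estimates above 0 rest on 1 library. Chow replicate 2 was the lowest of all 10 libraries in 13 of 15 UGT members, at a median of 0.449 times the mean of the other Chow libraries. In 17 of 21 GST members it was the highest Chow library, at a median of 1.62 times the others. Without it, 6 of 13 UGT estimates lay above 0 and the median log2 fold change went from 0.07 to -0.15. With the offset for GC content and length, 7 of 13 lay above 0 and the median was 0.01. The GST members have a median transcript GC content of 51.0% and length of 1179 bases, and the UGT members 41.6% and 2224 bases. What part these features have in the values of Chow replicate 2 was not tested.

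**Figure D4:**
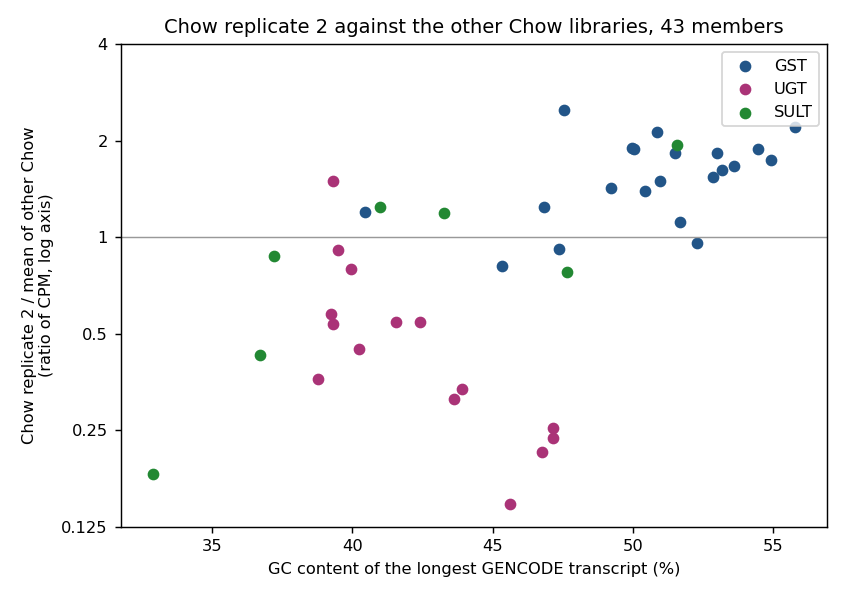
Ratio of CPM in Chow replicate 2 to the mean of the other Chow libraries (log axis) against the GC content of the longest transcript in percent, for all 43 members. GST points lie mostly above 1, with a median of 1.62, and UGT points mostly below 1, with a median of 0.449.

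The summed UGT level was 3378 ± 811 CPM in Chow and 3668 ± 266 CPM in TM5614 (SD, n = 5). Chow replicate 2 stood at 1965 CPM and the other Chow libraries at 3434 to 3946 CPM, and the TM5614 libraries spanned 3387 to 4067 CPM. The summed SULT level was 1556 ± 354 CPM in Chow and 1550 ± 211 CPM in TM5614 (SD, n = 5).

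**Figure D5:**
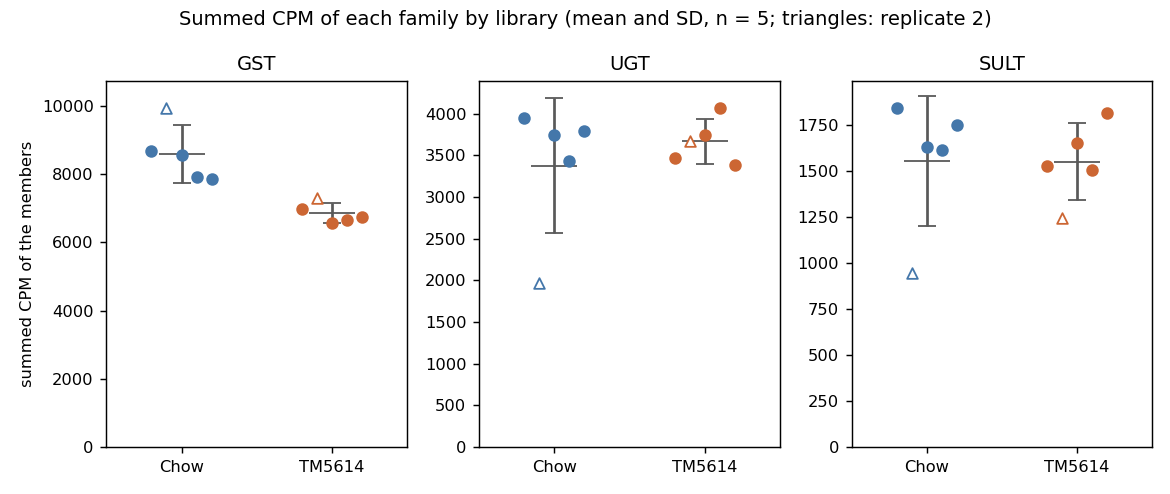
Summed CPM of the GST, UGT and SULT members in each library (vertical axes from 0), with the mean and SD (n = 5 per group); triangles mark replicate 2 of each group. The GST sums do not overlap between groups, and in the UGT and SULT panels the triangle of Chow replicate 2 lies lowest.

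Of the 7 SULT genes, all tested, 1 was lower. Sult1b1 (ENSMUSG00000029269.11, chr5:87513339-87538195, - strand) encodes a sulfotransferase of thyroid hormones and small phenols. Its level was 54.6, 45.9, 44.9, 50.9 and 59.2 CPM in Chow replicates 1 to 5. In TM5614 replicates 1 to 5 it was 36.8, 29.6, 31.2, 30.5 and 46.1 CPM. The groups overlapped, since TM5614 replicate 5 lay above Chow replicates 2 and 3. The fitted level fell by 31.7% (log2 fold change -0.55, SE 0.14), and the edgeR adjusted p of 0.04999 was just under the threshold. It was over the threshold with RLE factors (0.0501), upper-quartile factors (0.0517), library totals alone (0.0721) or no filter (0.0721) in edgeR. It was also over it with Chow replicate 1 (0.0939), 3 (0.0698), 4 (0.0942) or 5 (0.102), or TM5614 replicate 1 (0.0914), 2 (0.108), 3 (0.142) or 4 (0.138) left out, and it held without Chow replicate 2 (0.0192) or TM5614 replicate 5 (0.0192).

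By FPKM the leading SULT genes were Sult1a1, the phenol sulfotransferase, at 441 in Chow and 373 in TM5614, Sult2a8, a bile acid sulfotransferase, at 312 and 347, and Sult1d1, which acts on catecholamines, at 71.1 and 82.3. Sult1a1 was at 610 ± 101 and 518 ± 73.5 CPM (SD, n = 5; log2 fold change -0.24, SE 0.14, edgeR adjusted p = 0.352). Sult2a8 was at 898, 343, 827, 588 and 878 CPM in Chow replicates 1 to 5 and at 769, 495, 893, 854 and 922 CPM in TM5614 replicates 1 to 5. Replicate 2 was again the lowest library of each group, and the difference was not called (log2 fold change 0.15, SE 0.25). Sult1d1 was at 37.6 CPM in Chow replicate 2 and at 173 to 247 CPM in the other Chow libraries, against 180 to 216 CPM in TM5614. The edgeR adjusted p was 0.748, with a log2 fold change of 0.21 (SE 0.35) that became -0.04 without Chow replicate 2. Sult1c2, Sult2a7 and Sult5a1 had 369 to 463 counts in all and did not pass in edgeR. Sult1c2 (log2 fold change -0.81, edgeR adjusted p = 0.0969) was called lower by DESeq2, by limma-voom, with the offset for GC content and length (edgeR adjusted p = 0.0493) and without Chow replicate 1.

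The limit of 50 counts fell among genes of very low level. Just inside it lay Ugt2b37 with 67 counts, Ugt2b38 with 74 and Gsta1 with 76, none of them tested, and just outside it lay Ugt1a10 with 44. Of the 20 genes below the limit, 8 had 0 counts in all libraries, most of them Sult genes.

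Genes linked to the reactions were read from 6 lists of 58 genes, on cofactor supply, other conjugating enzymes, efflux pumps and regulators. Of these genes 54 were tested, 0 were higher and 5 were lower, which is 9.26% against 4.50% of all genes tested. Only 1 of the 5, Slc35b2, was in a supply list. Inmt was among the other conjugating enzymes, and Dbp, Tef and Rxra were regulators. Without Chow replicate 2 the count over the 6 lists was 12, all lower, while 1019 of all 11162 genes tested were called. With Chow replicates 3 or 4 or TM5614 replicates 2, 3, 4 or 5 left out the count was 3 each time. Of the glutathione supply genes 0 of 8 passed edgeR's test, and 0 passed by DESeq2. At an unadjusted p under 0.05 there were 2, both higher in TM5614. These were Cth (log2 fold change 0.77, SE 0.32, edgeR adjusted p = 0.206) and Cbs (log2 fold change 0.28, SE 0.11, edgeR adjusted p = 0.189). By limma-voom 1 was higher, Cth. Gclc and Gclm, the subunits of the rate-limiting ligase, were at 228 ± 75.4 and 221 ± 51.8 CPM and at 137 ± 41.3 and 128 ± 12.1 CPM. Gss, which completes glutathione, was at 67.8 ± 15.0 and 53.7 ± 8.54 CPM, and Gsr, which reduces its oxidised form, at 96.1 ± 17.7 and 112 ± 10.6 CPM (SD, n = 5, Chow before TM5614).

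Of the UDP-glucuronic acid supply genes 0 of 7 passed by edgeR, by DESeq2 or at an unadjusted p under 0.05, and 1, Slc35d1, was lower by limma-voom. Slc35d1 was also lower without Chow replicate 2, and it was called with the offset for GC content and length. Ugp2, which makes UDP-glucose, was at 538 ± 84.0 and 515 ± 54.8 CPM, and Ugdh, which oxidises it to UDP-glucuronic acid, at 171 ± 52.1 and 155 ± 27.7 CPM (SD, n = 5). With replicate 2 of each group left out, Slc35d1 was called and Ugdh was lower (log2 fold change -0.39, edgeR adjusted p = 0.0461). With the offset added to that fit Ugdh was at -0.47 (edgeR adjusted p = 0.0225). Of the PAPS supply genes 1 of 7 was lower. That was Slc35b2, the Golgi PAPS transporter, at 37.3, 74.5, 40.3, 49.0 and 37.4 CPM in Chow replicates 1 to 5 and at 28.4, 31.7, 23.7, 23.1 and 30.1 CPM in TM5614 replicates 1 to 5 (log2 fold change -0.80, SE 0.20, edgeR adjusted p = 0.0410). The groups did not overlap. The edgeR adjusted p reached 0.128 with TM5614 replicate 3 left out, and the call was also lost without Chow replicate 3 (0.0618) or 4 (0.0863) or TM5614 replicate 1 (0.0824), 2 (0.0584), 4 (0.124) or 5 (0.0733). Of the PAPS synthases, Papss2 was at 272 ± 62.1 and 221 ± 35.9 CPM and Papss1 at 6.65 ± 2.01 and 7.57 ± 1.19 CPM (SD, n = 5). Neither passed in edgeR or DESeq2. Papss2 was called lower without Chow replicate 2 (log2 fold change -0.43, edgeR adjusted p = 0.0476), with replicate 2 of each group left out (edgeR adjusted p = 0.0350) and by limma-voom (adjusted p = 0.0405).

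Among 10 other conjugating enzymes 1 was lower. Inmt, which methylates indolamines, was at 562, 696, 561, 508 and 480 CPM in Chow replicates 1 to 5. In TM5614 replicates 1 to 5 it was at 291, 296, 157, 300 and 254 CPM. The groups did not overlap (log2 fold change -1.11, SE 0.18, edgeR adjusted p = 0.00411). Of the 7 efflux pumps that carry conjugates out of the cell, 0 passed edgeR's test, while 2 were lower at an unadjusted p under 0.05, 2 by DESeq2 and 3 by limma-voom.

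Of 15 regulators 3 were lower and 0 higher. Dbp, a clock-driven transcription factor that binds D-boxes, was at 130, 276, 172, 170 and 143 CPM in Chow replicates 1 to 5 and at 57.2, 33.0, 25.3, 44.8 and 64.8 CPM in TM5614 replicates 1 to 5. The highest TM5614 library lay well under the lowest Chow library (log2 fold change -1.99, SE 0.27, edgeR adjusted p = 0.00179). Its relative Tef was at 218 ± 31.6 and 117 ± 25.2 CPM (SD, n = 5; log2 fold change -0.90, SE 0.16, edgeR adjusted p = 0.00733). The time of day at which livers were taken is not given in the sources used here, and its part in these values was not tested. Rxra, the shared partner of many nuclear receptors, was at 593 ± 29.2 and 456 ± 37.1 CPM (SD, n = 5; log2 fold change -0.38, SE 0.09, edgeR adjusted p = 0.0417), and it kept its call in 9 of 22 alternative settings and, of the settings that leave out 1 library, only without Chow replicate 2 (edgeR adjusted p = 0.0168); with any other library left out the edgeR adjusted p was 0.0559 to 0.128. By DESeq2 6 of the 15 regulators were lower, by limma-voom 6, and 7 at an unadjusted p under 0.05. The xenobiotic receptors Nr1i2 (PXR; log2 fold change -0.31, edgeR adjusted p = 0.114, groups that did not overlap) and Nr1i3 (CAR; log2 fold change -0.67, edgeR adjusted p = 0.113) missed the threshold in edgeR, while DESeq2 called both lower and limma-voom called Nr1i2 lower. Nfe2l2, which encodes NRF2, its inhibitor Keap1, Ahr and Arnt were called by none of the 3 tools.

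Marker lists were read beside these values. Of 11 pericentral hepatocyte markers 3 were lower (Cyp1a2, Gulo and Lect2) and 1 was higher (Axin2), and their summed level was 11799 to 17690 CPM in Chow and 11508 to 16172 CPM in TM5614. Of 8 periportal markers 0 passed edgeR's test, DESeq2 or limma-voom (1 at an unadjusted p under 0.05), at 6177 to 12441 CPM in Chow and 10130 to 11159 CPM in TM5614. The 6 stellate cell markers, Des and collagen genes among them, stood at 153 to 269 CPM in Chow and 246 to 537 CPM in TM5614, with 0 calls by edgeR, 0 by DESeq2, 1 by limma-voom and 2 at an unadjusted p under 0.05. Kupffer cell, endothelial and cholangiocyte lists had 0 calls by all 3 tools, with 0, 1 and 0 genes at an unadjusted p under 0.05. Of the intestinal and renal list Fabp2, a fatty acid carrier that liver also expresses, was higher, and Umod and Slc12a1 were listed at 0. The 4 globin genes were listed at 0 in every library. The part of these cell types in the GST values was not tested.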

How the data were processed

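Hepatic RNA of 5 Chow and 5 TM5614 mice was measured, with groups and replicate numbers taken from the sample titles and columns matched by mouse number. Per the study's methods, single-end reads of 75 bases were aligned with STAR to mm10 in the RNA Express application of Illumina, and the submitters' processing notes also name HOMER and DESeq2. Tool versions, the gene annotation, the use of strand and the treatment of reads with several matches are not given in the sources used here. The deposited counts are whole numbers for each gene symbol and were not normalized. The deposited FPKM values are the authors' counts divided by gene length and by a factor per library, which was checked against the counts over 10108 genes and tracked the DESeq2 size factors; they served to compare levels between genes. The authors' regularised log2 values and their own comparison of the groups (fold changes and p-values) were not used.

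Genes were kept with filterByExpr, scaled with TMM and tested in R 4.3.3 by the quasi-likelihood F test of edgeR 4.0.16, two-sided and with group as the only term. P-values were adjusted by Benjamini-Hochberg over 11092 genes, and 0.05 was the threshold. Each SE came from the size of the log2 fold change divided by the root of its F. CPM were scaled by library size and TMM. Positions, GC content and length of the longest transcript came from GENCODE M21, whose GRCm38 coordinates are those of mm10, and all 43 members matched. Words of 75 bases were taken from the principal transcript of each member and searched in all GENCODE transcripts. Promoter windows came from RefSeq. Among 20 pairs of libraries within a group, counts differed by a chi-square of at least 7.50 per degree of freedom, so no library was a copy of another. Totals of 6398335 to 10874955 counts set the counting error. P-values set the difference between the groups against the spread among the mice within each group.

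The members, gene lists and tests were chosen with earlier results of these data known. Named with values were the members past the threshold, the 3 of highest mean FPKM per family, those nearest the count limit, those with groups that did not overlap, those with a library far from the others of its group, the pathway genes past the threshold and those that make the cofactors; Mgst3, Ugt1a5, Ugt3a1, Gstt1, Gstp1, Gstm7 and the other members with values were added after their values were seen. Alternatives were DESeq2 1.42.0, a minimum of 10 counts per library, no filter, library totals in place of factors, RLE factors, upper-quartile factors, limma-voom with quality weights (limma 3.58.1), the replicate number as a block, a spline offset on GC content and length (5 degrees of freedom each), paralogues summed, Chow replicate 2 and TM5614 replicate 2 left out together, and each library left out in turn. The offset without that pair of libraries was chosen after seeing the data. The fits were tested on simulated counts. Dixon's test was applied to 106 groups of 5 libraries.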

Additional observations from a re-analysis of the deposited data

Results flagged for a closer look

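Of 106 groups of 5 libraries, 13 held a library far from the other 4 by Dixon's test, against 5.3 that chance gives, and 11 of the 13 were Chow replicate 2. Among GST genes Chow replicate 2 was high for Gstm4 (71.6 CPM, others 39.3 to 46.8), Gstm5 (14.0 CPM, others 6.29 to 8.35), Gstz1 (1004 CPM, others 795 to 835) and Mgst3 (39.8 CPM, others 15.9 to 20.9). Among UGT genes it was low for Ugt1a6a (10.9 CPM, others 30.2 to 34.0), Ugt2a3 (180.0 CPM, others 313 to 344) and Ugt2b35 (127 CPM, others 216 to 250). It was high for Dbp (276 CPM, others 130 to 172) and Gss (94.0 CPM, others 56.6 to 64.9), and low for Gclm (64.8 CPM, others 145 to 165) and Ugdh (81.4 CPM, others 175 to 212). TM5614 replicate 2 was high for Gstm1 (1225 CPM, others 802 to 912) and low for Ugt1a1 (168 CPM, others 245 to 270).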

How the results depend on the processing

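The count of members lower in TM5614 was 6, and the count of members higher was 0 in the main test and in each of the 22 alternatives. The count of members changed was 5 with RLE factors, upper-quartile factors, library totals alone or no filter, 6 with at least 10 counts in every library, 8 with DESeq2 or with the offset for GC content and length, and 4 of 24 units with paralogues summed. It was 11 with limma-voom, and 10 with both libraries that stand apart left out, with or without the offset. With 1 library left out it ranged from 4 to 8. The 5 pathway genes became 3 without a filter, 10 with DESeq2, 16 with limma-voom, 9 with the offset, 14 without the pair of libraries, 16 with both of these together, and 3 to 12 with 1 library left out, where 12 is without Chow replicate 2. Of the pathway genes called by limma-voom, Cth and As3mt were higher.

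With the replicate block 8 members and 4 pathway genes were called. Deviations of same-numbered libraries correlated at 0.032 to 0.318, and 3 of 10 libraries correlated best with their own number, so the numbers were not taken to pair the mice. With the replicate block Ugt2a3 had a log2 fold change of 0.0033, and with library totals alone 0.011, against -0.03 in the main test.

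Of 22 alternatives, Gsta3, Gstt3, Inmt, Dbp and Tef kept their calls in all 22, Gstm3 and Gstm6 in all 21 that left them as separate genes, Gstm1 in 15 of 21, Slc35b2 in 13 and Sult1b1 in 10.

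Signs of uncalled genes turned as follows, in log2 fold change. With the offset, Ugt2b5 was at -0.023, Sult2a8 at -0.015, Gstm4 at 0.084, Gstp1 at 0.00032, Ugt1a6a at -0.056 and Ugt2b35 at -0.0089. With both libraries that stand apart left out, Ugt2b5 was at -0.0093, Ugt2b36 at -0.019, Sult1d1 at -0.068, Gstm4 at 0.049, Ugt1a1 at -0.068, Ugt1a6a at -0.15 and Papss1 at -0.050. With both these changes, Ugt2b5 was at -0.082, Ugt2b36 at -0.096, Sult1d1 at -0.21, Gstm4 at 0.098, Gstp1 at 0.049, Ugt1a1 at -0.098, Ugt1a6a at -0.21, Ugt2b35 at -0.079 and Papss1 at -0.071. With limma-voom, Gstm4 was at 0.054, Ugt1a1 at -0.083, Ugt1a6a at -0.15 and Papss1 at -0.064. With 1 library left out, Sult2a8 ranged from -0.017 to 0.28, Sult1d1 from -0.045 to 0.38, Gstm4 from -0.14 to 0.10, Ugt1a1 from -0.17 to 0.21, Ugt1a6a from -0.17 to 0.12, Ugt2a3 from -0.17 to 0.019 and Gclc from -0.23 to 0.070. The cause was not tested.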
